A study of Mus musculus with 16 samples.

Results

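The vascular endothelial growth factor (VEGF) family was followed through neonatal mouse ventricles by its 10 genes. These were the ligands *Vegfa*, *Vegfb*, *Vegfc*, *Vegfd* and *Pgf*, the receptor tyrosine kinases *Kdr* (VEGFR2), *Flt1* (VEGFR1) and *Flt4* (VEGFR3), and the co-receptors *Nrp1* and *Nrp2*. They were chosen by name from the 51912 genes of the count table, and all 10 had enough counts to be tested. Total RNA, depleted of ribosomal RNA, was sequenced from whole ventricles, including the tissue above and below the ligated artery, of mice operated on postnatal day 1 and collected 7 days later. The groups were wild type after sham surgery (WT SH), *Lrrc10* knockout after sham surgery (KO SH), wild type after myocardial infarction (WT MI) and *Lrrc10* knockout after infarction (KO MI), with 4 libraries each and the KO MI libraries numbered 1, 2, 3 and 7. LRRC10 is a leucine-rich repeat protein of cardiomyocytes. The knockout was present in every cell from conception, so the KO groups carried it throughout development. The libraries were labelled as quadruplicates, 1 sample each, and p-values measure the spread between them.

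VEGF ligands are secreted proteins that bind receptor tyrosine kinases on blood and lymphatic endothelial cells. VEGF-A signals mainly through VEGFR2 to drive endothelial growth, migration and permeability, while VEGFR1 binds VEGF-A tightly with weak kinase activity and is often described as a decoy. In the heart, cardiomyocytes are a main source of *Vegfa* and *Vegfb*, and endothelial cells carry the receptors. Neuropilins have a short cytoplasmic tail, hold VEGF-A in complex with VEGFR2, and also serve as receptors for class 3 semaphorins. *Vegfa* is a classical target of the hypoxia-inducible factors (HIFs), which bind a core sequence of the letters ACGTG or GCGTG.

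The 250 bases before the annotated start of *Vegfa* and of *Nrp1*, the genes with a call in more than 1 comparison, are shown 5′ to 3′ on the strand of the gene (GRCm39, gene starts from GENCODE M39). Capitals mark the HIF core ACGTG or GCGTG and the GC box GGGCGG, a Sp1 family motif, read on either strand.
Vegfa, minus strand, chr17:46343310-46343559: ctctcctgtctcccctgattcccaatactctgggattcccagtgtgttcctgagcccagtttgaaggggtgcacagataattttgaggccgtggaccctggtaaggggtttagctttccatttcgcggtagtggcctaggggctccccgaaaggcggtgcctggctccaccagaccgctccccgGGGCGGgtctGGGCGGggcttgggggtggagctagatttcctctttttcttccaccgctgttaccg
Nrp1, plus strand, chr8:129084835-129085084: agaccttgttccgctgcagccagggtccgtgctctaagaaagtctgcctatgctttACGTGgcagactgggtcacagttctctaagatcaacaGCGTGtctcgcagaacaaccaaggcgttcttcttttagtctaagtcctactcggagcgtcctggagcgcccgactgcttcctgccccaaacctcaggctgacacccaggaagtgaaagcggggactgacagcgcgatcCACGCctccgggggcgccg
The *Vegfa* window held 2 GC boxes and no HIF core. Sequence beyond the 250 bases was not searched for either gene, so a HIF core further away would not be seen. The *Nrp1* window held 1 ACGTG and 2 GCGTG matches, 1 of them on the other strand, and no GC box. Of 21757 windows of 250 bases before gene starts, 16.4% held ACGTG, 28.0% held GCGTG and 29.9% held GGGCGG, so these letters are common. A match describes the sequence only, and *Nrp1* transcripts can also start further downstream. The *Vegfa* gene (ENSMUSG00000023951) lies on chromosome 17 from 46327919 to 46343309, and *Nrp1* (ENSMUSG00000025810) on chromosome 8 from 129085085 to 129231082.

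The libraries held between 33783874 and 57470159 counts. *Lrrc10* was at 0 counts in all 8 KO libraries and between 1075 and 1850 counts in the 8 WT libraries. The groups were described as balanced for sex, but all 4 WT SH libraries had low *Xist* (at most 9.77 CPM, counts scaled by library size) and high Y-linked transcripts, as in male tissue, whereas each other group had 2 libraries with *Xist* at 919 CPM or more. Genotype and infarct effects against WT SH are therefore partly confounded with sex, and values without the high-*Xist* libraries are given for the members and for the listed genes. KO MI 2 and KO MI 7 carried skeletal muscle transcripts (summed marker level 59.2 and 81.6 CPM, at most 7.75 CPM elsewhere). The tissue label was borne out by a summed level of 68700 to 94600 CPM for 10 cardiomyocyte markers, led by *Ttn*. The 16 endothelial markers summed to between 612 and 795 CPM. The 7 thymocyte markers summed to 3.63 CPM in WT SH 4 and to at most 2.14 CPM elsewhere. Of these, *Dntt* was at 0 in all KO SH and WT MI libraries.

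Levels were first ranked per length, as CPM per kilobase of exon (mean ± SD over the 16 libraries). The ligand level was almost entirely *Vegfb*, at 39.4 ± 4.62 (n = 16), and *Vegfa*, at 36.5 ± 4.79. Their ranges overlapped, and in every library the pair made up between 95.4% and 97.2% of the summed ligand level per length. *Kdr*, the main signalling receptor, came next at 30.5 ± 2.6, and its range of 24.8 to 35.1 overlapped that of *Vegfa*. *Nrp1* was at 13.2 ± 1.56, *Nrp2* at 10.3 ± 1.13 and *Flt1* at 8.71 ± 0.856, each overlapping its neighbour in the order. The order depends on the length used, the union of all annotated exons. By mean CPM alone, *Kdr* (280) and *Nrp1* (201) were above *Vegfa* (157) and *Vegfb* (128). *Flt4*, the receptor of lymphatic endothelium, stood apart at 2.44 ± 0.314. The remaining ligands were scarce. *Vegfc*, the main lymphatic growth factor, was at 1.46 ± 0.153. *Vegfd*, a second VEGFR3 ligand, was at 0.816 ± 0.162, and placental growth factor *Pgf*, which binds VEGFR1, at 0.708 ± 0.136, and the ranges of these lowest genes overlapped.

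**Figure D1:**
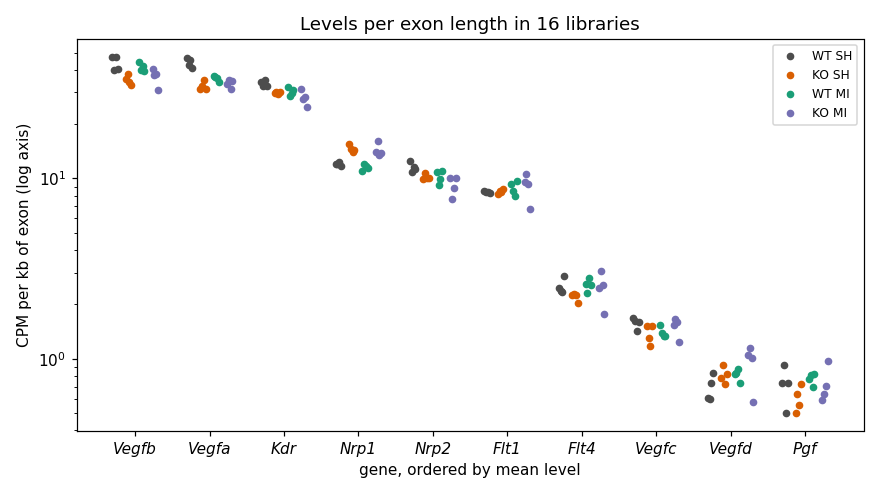
CPM per kilobase of exon (log axis) of the 10 genes, ordered by their mean, with 1 point per library coloured by group. *Vegfb*, *Vegfa* and *Kdr* lie between 24.8 and 47.4, and *Vegfc*, *Vegfd* and *Pgf* lie at or under 1.68.

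The ligands differed between groups through *Vegfa* and *Vegfb*. In the 4 WT SH libraries *Vegfa* was at 200, 182, 194 and 175 CPM. In KO SH it was at 136, 139, 151 and 134 CPM, in WT MI at 160, 157, 155 and 148 CPM, and in KO MI at 144, 152, 135 and 149 CPM. Every WT SH library was above every other library, and the KO MI and KO SH ranges overlapped. *Vegfb*, a VEGFR1 ligand linked to cardiac metabolism and coronary growth, was at 154, 131, 154 and 131 CPM in WT SH and at 116, 123, 112 and 108 CPM in KO SH, without overlap. It was at 145, 131, 137 and 128 CPM in WT MI and at 132, 122, 124 and 101 CPM in KO MI, which overlapped.

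The minor ligands overlapped between the groups in all 4 comparisons. *Vegfc* was at 4.51 ± 0.318 CPM (SD, n = 4) in WT SH, 3.95 ± 0.465 CPM in KO SH, 4 ± 0.259 CPM in WT MI and 4.3 ± 0.545 CPM in KO MI. *Vegfd* was at 1.97 ± 0.315, 2.31 ± 0.233, 2.32 ± 0.172 and 2.7 ± 0.73 CPM in the same order. *Pgf* was at 2.12 ± 0.509, 1.77 ± 0.287, 2.27 ± 0.168 and 2.12 ± 0.494 CPM. These genes had 51 to 250 counts per library, against 3782 to 10406 for *Vegfa* and *Vegfb*, and their fold changes are correspondingly less certain.

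Among the receptors, *Nrp1* separated the genotypes. It was at 184, 184, 187 and 179 CPM in WT SH and at 168, 183, 179 and 176 CPM in WT MI. In KO SH it was at 238, 222, 216 and 220 CPM, and in KO MI at 215, 246, 206 and 210 CPM. All 8 KO libraries (206 CPM or more) were above all 8 WT libraries (187 CPM or less).
*Kdr* was at 315, 299, 323 and 300 CPM in WT SH, and at 273, 278, 271 and 276 CPM in KO SH. It was at 296, 263, 273 and 285 CPM in WT MI and at 290, 253, 259 and 228 CPM in KO MI. All WT SH libraries were above the other 12, by a narrow margin of 299 against 296 CPM at the closest pair.
*Flt1* was at 115 ± 1.52 CPM in WT SH, 116 ± 3.29 CPM in KO SH, 121 ± 10.4 CPM in WT MI and 124 ± 22.1 CPM in KO MI, so its spread was wider after infarction. *Flt4* was at 20.8 ± 2.01, 18.2 ± 0.907, 21.1 ± 1.63 and 20.4 ± 4.38 CPM in the same order. *Nrp2*, the partner of VEGFR3 and of semaphorin 3F, was at 139 ± 8.73, 123 ± 4.05, 123 ± 10.1 and 110 ± 13.6 CPM. KO MI 7 held the lowest value of all 16 libraries for *Vegfb*, *Vegfd*, *Kdr*, *Flt1* and *Flt4* and the highest for *Pgf*, and its summed endothelial marker level, 612 CPM, was also the lowest of all.

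**Figure D2:**
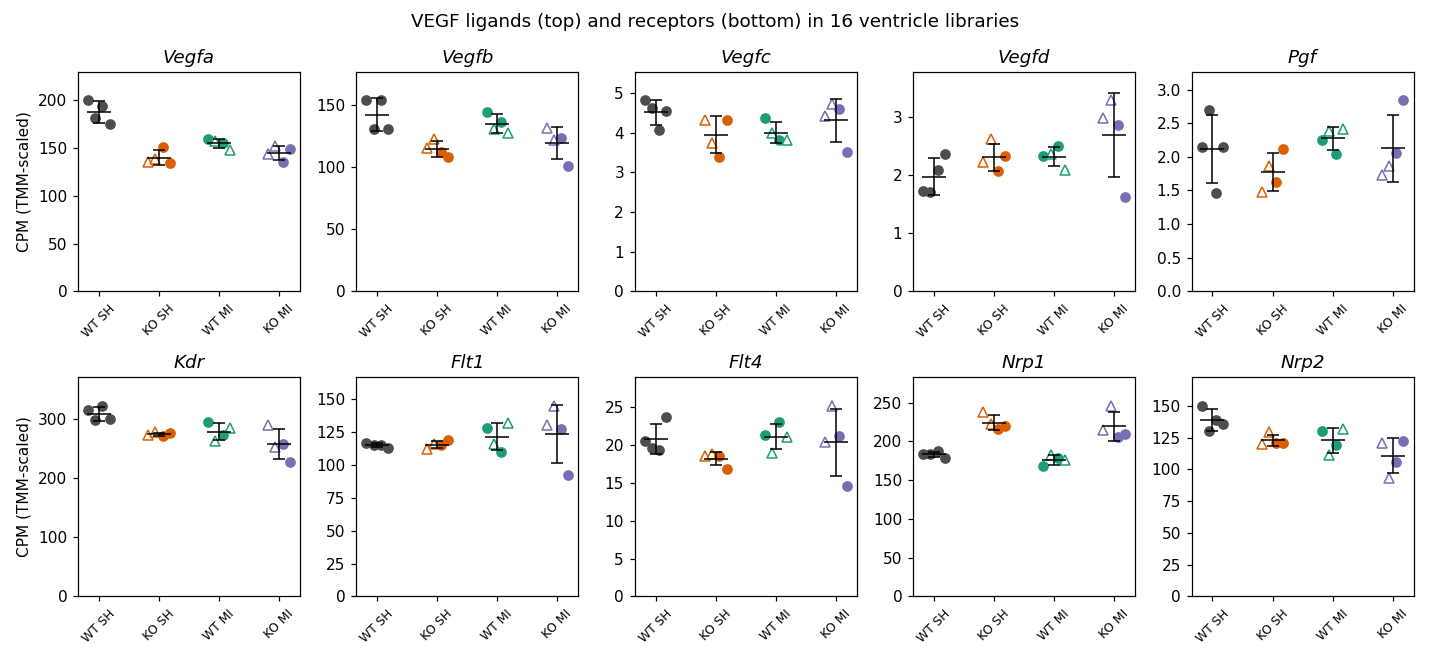
TMM-scaled CPM of the 5 ligands (top) and 5 receptors (bottom), 1 point per library (open triangles for high *Xist*, filled circles for low *Xist*), with bars for mean ± SD of 4 libraries. WT SH stands above the other groups for *Vegfa*, and both KO groups stand above both WT groups for *Nrp1*.

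The first comparison set the knockout against the wild type in the sham-operated ventricle. Per the edgeR quasi-likelihood test with Benjamini-Hochberg adjustment over 20159 genes, *Vegfa* fell in KO SH, with a log2 fold change of -0.42 (SE 0.0562, adjusted p = 0.000215) or 0.745-fold. *Vegfb* fell to 0.804-fold (log2 -0.31, SE 0.0791, adjusted p = 0.0225). *Nrp1* rose to 1.22-fold (log2 0.29, SE 0.0564, adjusted p = 0.00517). At an adjusted p under 0.1, 3 of the 10 genes were called, 2 lower and 1 higher, where 12.3% of all genes were called, 7.22% lower and 5.11% higher. *Kdr* had a log2 fold change of -0.17 and an adjusted p of 0.101, just outside the threshold. Libraries of the groups did not overlap for 6 of the 10 genes (*Vegfa*, *Vegfb*, *Kdr*, *Flt4*, *Nrp1* and *Nrp2*), against 18.5% of all genes. The log2 fold change of *Flt1* was 0.01, with a 95% interval of -0.19 to 0.21. None of the 10 genes reached a log2 change of 0.5, the size the study required for a differentially expressed gene, in this or any other comparison. Of all genes, 5.01% did so with a call in this comparison, 1.73% in KO MI against WT MI, 2.78% in WT MI against WT SH and 7.42% in KO MI against KO SH. All 3 calls held without the high-*Xist* libraries, with adjusted p of 0.0328 for *Vegfa*, 0.0859 for *Vegfb* and 0.0613 for *Nrp1*.

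The summed cardiomyocyte markers were lower in KO SH, where *Vegfa* and *Vegfb* fell. They were also lower in WT MI, where *Vegfa* was called lower (log2 -0.28, adjusted p = 0.0128, edgeR). *Vegfb* was not called there (log2 -0.08, adjusted p = 0.679, edgeR) and overlapped WT SH. The summed level was 80400 to 94600 CPM in WT SH and 68700 to 74900 CPM in the other 12 libraries. *Ttn* was the largest part of this sum, at group means of 50400 CPM in WT SH and 42100 to 43100 CPM elsewhere. Of the 10 markers, 6 were called lower in KO SH and none higher, where 7.22% of all genes were lower. *Pln* went the other way, since every KO SH library (2270 CPM or more) exceeded every WT SH library (2250 CPM or less). The 6 calls were lost with the low-*Xist* libraries alone, 2 in KO SH, at log2 folds of -0.34 for *Myh6* (-0.35 with all libraries) and -0.24 for *Ttn* (-0.24). In bulk tissue, fewer cells of a type and less RNA per cell cannot be told apart, and the part of cardiomyocyte content in the *Vegfa* and *Vegfb* differences was not tested. The endothelial markers summed to 784 to 795 CPM in WT SH and 724 to 775 CPM in KO SH, with 1 of 16 higher (*Sox17*, log2 0.43) and 1 lower (*Erg*, log2 -0.16). *Pecam1*, an endothelial adhesion molecule, was at 153 ± 3.43 CPM in WT SH and 145 ± 6.47 CPM in KO SH.

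The second comparison set the knockout against the wild type after infarction. *Nrp1* rose in KO MI against WT MI, with a log2 fold change of 0.31 (SE 0.0564, adjusted p = 0.0059, edgeR) or 1.24-fold. It was the single call among the 10 genes, where 3.07% of all genes were called, and the single gene without overlap, where 6.47% of all genes had none. *Vegfa* had a log2 fold change of -0.10 (95% interval -0.21 to 0.02) and *Vegfb* of -0.17 (adjusted p = 0.376). The *Nrp1* call remained without KO MI 2 and KO MI 7 (log2 0.25, adjusted p = 0.016). With the low-*Xist* libraries alone, 2 per group, its log2 fold change was 0.26 and its adjusted p 0.185. The 95% interval of the *Nrp1* difference was 0.17 to 0.41 after sham and 0.19 to 0.43 after infarction. The interaction, which compares the knockout effect after infarction with that after sham, was 0.03 for *Nrp1* (95% interval -0.14 to 0.19, adjusted p = 0.922).

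The response to infarction was small in both genotypes. In WT MI against WT SH, *Vegfa* fell to 0.824-fold (log2 -0.28, SE 0.0561, adjusted p = 0.0128, edgeR), the single call of the 10 genes, where 5.31% of all genes were called. The call was lost with the low-*Xist* libraries alone (log2 -0.25, adjusted p = 0.225). It was also lost with plain library totals in place of TMM scaling (log2 -0.15, adjusted p = 0.146), which shifted the median of all genes upward by 0.13 in this comparison. The summed cardiomyocyte markers were lower in every WT MI library as well, at 71600 to 74900 CPM, and 4 of 10 were called lower (0 with the low-*Xist* libraries alone, and 1 lower and 1 higher with library totals). *Kdr* had a log2 fold change of -0.15 (adjusted p = 0.229) and did not overlap, and 12.1% of all genes did not overlap. Of the 16 endothelial markers, 1 was called higher and 2 lower. *Vwf*, von Willebrand factor, had a log2 fold change of 0.48 (adjusted p = 0.0225, edgeR), the transcription factor *Erg* of -0.37 (adjusted p = 0.00152) and the endothelial cadherin *Cdh5* of -0.21 (adjusted p = 0.0831). With the low-*Xist* libraries alone *Erg* kept its call (adjusted p = 0.0428), and *Vwf* was at 0.38 (adjusted p = 0.205).

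In KO MI against KO SH none of the 10 genes was called by edgeR or DESeq2 and 0 had an unadjusted p under 0.05, where 17.5% of all genes were called. The groups overlapped for all 10 genes, and 14.9% of all genes did not overlap. *Vegfa* differed by 0.05 (95% interval -0.07 to 0.17) on the log2 scale and *Nrp1* by -0.03 (95% interval -0.15 to 0.09). This count rested on KO MI 7. Without it 4 genes were called. *Flt1* was higher by 0.21 (adjusted p = 0.0187, edgeR), *Flt4* by 0.29 (adjusted p = 0.0249) and *Vegfd* by 0.40 (adjusted p = 0.0424) on the log2 scale. *Nrp2* was lower (-0.20, adjusted p = 0.0786). In that fit 9 of 14 HIF target genes were called higher in place of 6, while macrophage markers stayed at 7 of 8 higher. The number of all genes called in it is not given here. Without KO MI 1 the single member called was *Kdr*, at -0.16 (adjusted p = 0.0789). With library totals in place of TMM, which shifted the median of all genes by 0.149, 5 genes were called, all higher, and over all genes 5718 were called in place of 3536.
The infarct response of *Vegfa* differed between genotypes by 0.33 on the log2 scale (95% interval 0.16 to 0.50, unadjusted p = 0.000622), and its adjusted p of 0.15 (edgeR) did not pass. No member passed this test, where 0.0248% of all genes did, 1 member had an unadjusted p under 0.05, and DESeq2 called *Vegfa* alone (adjusted p = 0.0157). All 4 comparisons share groups, and WT SH enters each difference that was called for *Vegfa*.

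**Figure D3:**
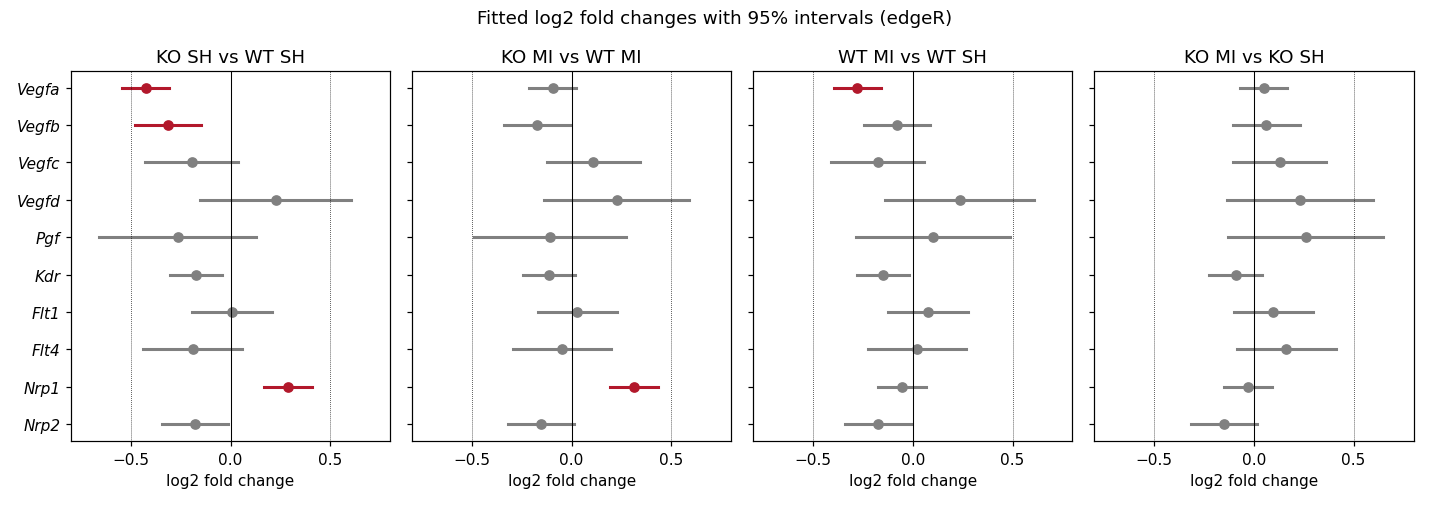
Fitted log2 fold changes (points) with 95% intervals (bars) of the 10 genes in the 4 comparisons, red where the adjusted p was under 0.1, and dotted lines at -0.5 and 0.5. *Vegfa* and *Vegfb* are red and negative in KO SH, *Nrp1* is red and positive in both KO comparisons, and no point lies beyond a dotted line.

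Ratios between members within a library do not depend on its scaling. *Nrp1* per length was between 0.967 and 1.31 times *Nrp2* in the 8 WT libraries and between 1.36 and 2.09 times in the 8 KO libraries, without overlap. *Kdr* was between 3.85 and 4.18 times *Flt1* in WT SH and between 2.6 and 3.7 times in the other 12 libraries. *Vegfa* was between 0.825 and 1.12 times *Vegfb*. All WT MI libraries (0.835 to 0.909) were below all WT SH libraries (0.953 to 1.05), and the range of each KO group overlapped both.
Receptors were also set against the endothelial list, as the log2 level of the receptor minus the mean log2 level of the 16 markers. *Nrp1* stood 2.697 ± 0.015 above the list in WT SH and 3.004 ± 0.099 above it in KO SH, 2.735 ± 0.105 in WT MI and 3.086 ± 0.143 in KO MI (SD, n = 4). The KO minus WT difference was 0.307 after sham and 0.351 after infarction, each with an exact permutation p of 0.0286 (two-sided), the smallest that 4 libraries against 4 allow. *Kdr* minus the list differed by -0.151 in KO SH (exact permutation p = 0.0286), opposite in sign to *Nrp1*. *Flt1* minus *Kdr* was -1.426 ± 0.05 in WT SH, -1.248 ± 0.035 in KO SH, -1.204 ± 0.087 in WT MI and -1.072 ± 0.21 in KO MI. Over the 24 such tests the lowest adjusted p was 0.114, so none passed.

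**Figure D4:**
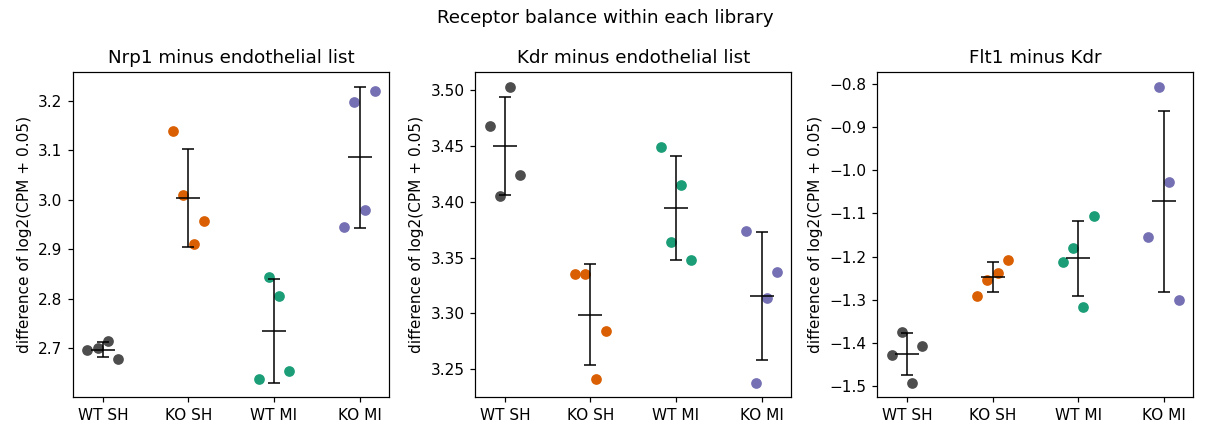
Difference of log2(CPM + 0.05) within each library (1 point per library, bars for mean ± SD, n = 4) for *Nrp1* and *Kdr* minus the mean of the endothelial list and for *Flt1* minus *Kdr*. *Nrp1* lies at 2.91 or above in the 8 KO libraries and at 2.845 or below in the 8 WT libraries, and *Flt1* minus *Kdr* is lowest in WT SH.

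HIFs act upstream of *Vegfa*, and *Arnt* and *Hif3a* differed by genotype after both surgeries. *Arnt*, the obligate partner of the HIF alpha subunits, was at 59.7 ± 3.21 CPM in WT SH and 38.8 ± 1.78 CPM in KO SH (log2 -0.62, SE 0.0511, adjusted p = 1.53e-06). It was at 55.4 ± 2.11 CPM in WT MI and 38.8 ± 0.704 CPM in KO MI (log2 -0.51, adjusted p = 1.72e-05), and neither pair overlapped. *Hif3a*, whose products can restrain HIF activity, was scarce and rose from 1.18 ± 0.244 to 2.44 ± 0.08 CPM after sham (log2 1.06, adjusted p = 0.00739) and from 1.13 ± 0.224 to 2.31 ± 0.871 CPM after infarction (log2 1.01, adjusted p = 0.0206). Of the 8 HIF regulators, 2 were called higher and 3 lower in KO SH, where 12.3% of all genes were called, and 2 higher and 1 lower in KO MI against WT MI, where 3.07% were. The third gene by adjusted p in KO SH was *Egln1*, the oxygen sensor that marks HIF alpha for destruction, with a log2 fold change of -0.22 (adjusted p = 0.0214). In KO MI it was *Vhl*, which completes that destruction, with a log2 fold change of 0.36 (adjusted p = 0.0589). *Arnt*, *Hif3a* and their directions held with the low-*Xist* libraries alone in both comparisons, where *Vhl* (adjusted p = 0.274 after sham and 0.559 after infarction) and *Egln1* (adjusted p = 0.195) were not called. Infarction gave calls for *Epas1*, which encodes HIF-2 alpha, with a log2 fold change of -0.27 in WT MI against WT SH (adjusted p = 0.0268) and -0.25 in KO MI against KO SH (adjusted p = 0.0151). *Hif1a* was higher by 0.37 in the latter (adjusted p = 0.00901) and was not called with the low-*Xist* libraries alone (adjusted p = 0.358). *Hif1a* was also among the 3 called lower in KO SH, at 240 ± 1.43 CPM against 284 ± 6.71 CPM in WT SH. That call was lost with the low-*Xist* libraries alone, where *Arnt* was the 1 HIF regulator called lower. *Epas1* was not called with library totals (adjusted p = 0.131 and 0.178).
The 14 other HIF targets gave 1 call in KO SH (*Ankrd37*, log2 -0.73, adjusted p = 0.0583) and 1 in KO MI against WT MI (*Adm*, the vasodilator adrenomedullin, log2 0.50, adjusted p = 0.0269). *Adm* was not called with the low-*Xist* libraries alone (adjusted p = 0.628) or without KO MI 2 and KO MI 7 (adjusted p = 0.203). The count in KO MI against WT MI was 0 with the low-*Xist* libraries alone, 3 higher without KO MI 2 and KO MI 7 and 6 higher without KO MI 7. In KO SH the count without KO MI 7, which enters through the shared estimate of spread, was 4 lower. In the main fit, all genes were called at 12.3% in KO SH and at 3.07% in KO MI against WT MI. The shares in the other fits are not given here. Between KO MI and KO SH, 6 of the 14 were higher in KO MI and none lower, where 10.2% of all genes were higher, and *Vegfa* was not among the genes called. The glucose transporter *Slc2a1* rose by 1.02 in log2 (adjusted p = 0.00291), the glycolytic enzyme *Pgk1* by 0.55 (adjusted p = 0.0209) and the collagen hydroxylase subunit *P4ha1* by 0.45 (adjusted p = 0.0412). The median of the 14 was 0.24, against -0.01 for all genes. With the low-*Xist* libraries alone, *Slc2a1* (adjusted p = 0.0829) was among the genes called and the count was 1. None of the 14 was called in WT MI against WT SH by edgeR.

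A list of 12 genes that endothelial cells can switch on under VEGF signalling or as tip cells was also followed. It was chosen with earlier results of these data known. Which cells of the ventricle made these transcripts was not tested. In KO SH 5 of the 12 were called lower and none higher, where 7.22% of all genes were lower. The median log2 fold change of the 12 was -0.38, against 0.01 for all genes. *Apln*, an endothelial peptide of tip cells, fell from 43.7 ± 1.64 to 26.5 ± 2.38 CPM (log2 -0.72, adjusted p = 0.000866). *Adamts1*, a VEGF-binding protease, fell from 49.2 ± 5.89 to 28.3 ± 2.05 CPM (log2 -0.80, adjusted p = 0.00116). *Nid2*, a basement membrane protein, fell by 0.29 (adjusted p = 0.0158). The other two were *Egr3* (log2 -1.34, adjusted p = 0.0298), at under 1 CPM, and *Hlx* (log2 -0.29, adjusted p = 0.0638), named after their values were seen. *Apln* and *Adamts1* made up the 2 calls that remained with the low-*Xist* libraries alone (adjusted p = 0.00517 and 0.00258).
None of the 12 was called in KO MI against WT MI by edgeR. Between KO MI and KO SH, 5 of 12 were higher in KO MI, where 10.2% of all genes were, and *Plvap*, which forms the diaphragms of endothelial fenestrae, rose by 1.08 (adjusted p = 0.00172), *Apln* by 0.55 (adjusted p = 0.00493) and *Nid2* by 0.30 (adjusted p = 0.0105). *Plvap* was also the single gene of this list called in WT MI against WT SH, where it rose from 3.58 ± 0.54 to 6.11 ± 0.982 CPM (log2 0.77, adjusted p = 0.0268). The low-*Xist* libraries alone gave 2 higher and 1 lower in KO MI against KO SH. The summed level of the 12 genes was 377 CPM in KO MI 2 and 232 CPM in KO MI 7, against 266 and 294 CPM in KO MI 1 and 3. Without KO MI 7, 8 of 12 were called higher in KO MI against KO SH and 5 in the interaction. The HIF targets also gave 5 higher in that interaction, and the VEGF signal transduction genes 5 higher and 1 lower. The number of all genes called in that fit is not given here, so the gain cannot be read as particular to this list.

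Downstream of the receptors, the 25 genes of VEGF signal transduction gave 1 call in KO SH, the kinase *Akt1* (log2 -0.21, adjusted p = 0.0209), and 1 in KO MI against WT MI, *Nfatc1* (log2 -0.34, adjusted p = 0.0158), a transcription factor of endocardial cells. The latter was not called with the low-*Xist* libraries alone (adjusted p = 0.33). Infarction in the knockout left 6 higher and 4 lower, where 17.5% of all genes were called in either direction. The phospholipase *Plcg1*, which binds activated VEGFR2, fell by 0.27 (adjusted p = 0.0153), *Pik3ca* by 0.19 (adjusted p = 0.0301), and the small heat shock protein gene *Hspb1* rose by 0.54 (adjusted p = 0.0242). Plain library totals gave 11 higher and 0 lower in this comparison, and the low-*Xist* libraries alone gave 2 higher and 0 lower.

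The class 3 semaphorins compete with VEGF-A for neuropilins or signal through them with plexins. Of 12 semaphorin and plexin genes, 2 were higher and 1 lower in KO SH, where 5.11% of all genes were higher and 7.22% lower. *Sema3a*, the NRP1 ligand, rose from 7.85 ± 1.01 to 11.3 ± 1.01 CPM (log2 0.53, adjusted p = 0.0111), and this remained with the low-*Xist* libraries alone (adjusted p = 0.0854). *Sema3e*, the ligand of plexin D1, was at 0.156 ± 0.0575 CPM in WT SH, 0.444 ± 0.111 CPM in KO SH, 0.592 ± 0.11 CPM in WT MI and 0.644 ± 0.152 CPM in KO MI. Its log2 fold change was 1.45 in KO SH (adjusted p = 0.0111) and 1.86 in WT MI against WT SH (adjusted p = 0.0035), on few reads, since 3 counts correspond to between 0.0577 and 0.0858 CPM. *Plxnd1*, its receptor, fell by 0.18 in KO SH (adjusted p = 0.024) and by 0.21 in WT MI (adjusted p = 0.0231). None of the 12 was called in KO MI against WT MI by edgeR, where 3.07% of all genes were called, and 8 of the 12 had a positive log2 fold change. A link between these genes and the *Nrp1* difference was not tested. Between KO MI and KO SH, 3 were higher and 1 lower in KO MI, where 17.5% of all genes were called, led by *Sema3d* (log2 0.63, adjusted p = 0.00671).

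Among other vascular growth factors, *Angpt1*, which stabilises vessels through the receptor TIE2, rose in KO SH from 9.42 ± 1.68 to 17.2 ± 2.33 CPM (log2 0.87, adjusted p = 0.00211), the single call of 4 angiopoietin and TIE genes. *Pdgfb*, which endothelial cells release to recruit pericytes, fell in KO SH from 11.3 ± 0.124 to 8.81 ± 0.619 CPM (log2 -0.36, adjusted p = 0.013). It also fell in KO MI against WT MI, from 11.1 ± 1.26 to 8.28 ± 0.573 CPM (log2 -0.43, adjusted p = 0.00923). It was the single called gene of 6 PDGF genes in both, and both calls remained with the low-*Xist* libraries alone (adjusted p = 0.0859 and 0.0678). In KO MI against KO SH, *Tie1*, an orphan receptor of endothelium, fell by 0.40 (adjusted p = 0.00221) and *Tek*, the angiopoietin receptor TIE2, by 0.23 (adjusted p = 0.0424). There, 5 of 16 endothelial markers were lower and 1 higher, where 17.5% of all genes were called, and 3 of 6 pericyte markers were lower, among them *Kcnj8* (log2 -0.45, adjusted p = 0.00282). Library totals in place of TMM gave 0 lower and 2 higher endothelial markers but left 3 pericyte markers lower, so the endothelial count depends on the scaling. The low-*Xist* libraries alone gave 0 endothelial markers higher and 1 lower, and 3 pericyte markers were lower.
The lymphatic and VEGF-C processing genes, which act with *Vegfc*, *Vegfd* and *Flt4*, gave no call of 9 in KO SH by edgeR, while 4 of 9 were lower in KO MI against KO SH, where 17.5% of all genes were called in either direction. *Mmrn1* fell by 0.96 (adjusted p = 0.0155) and the lymphatic chemokine *Ccl21a* by 1.35 (adjusted p = 0.0219), both at low levels, and *Prox1*, the lymphatic master regulator that cardiomyocytes also express, by 0.31 (adjusted p = 0.0621). *Itga9*, an integrin of lymphatic valves, was the single call in KO MI against WT MI (log2 0.44, adjusted p = 0.0402). Its log2 fold change was 0.21 with the low-*Xist* libraries alone (adjusted p = 0.591), where none of the 9 was called in KO MI against KO SH.

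**Figure D5:**
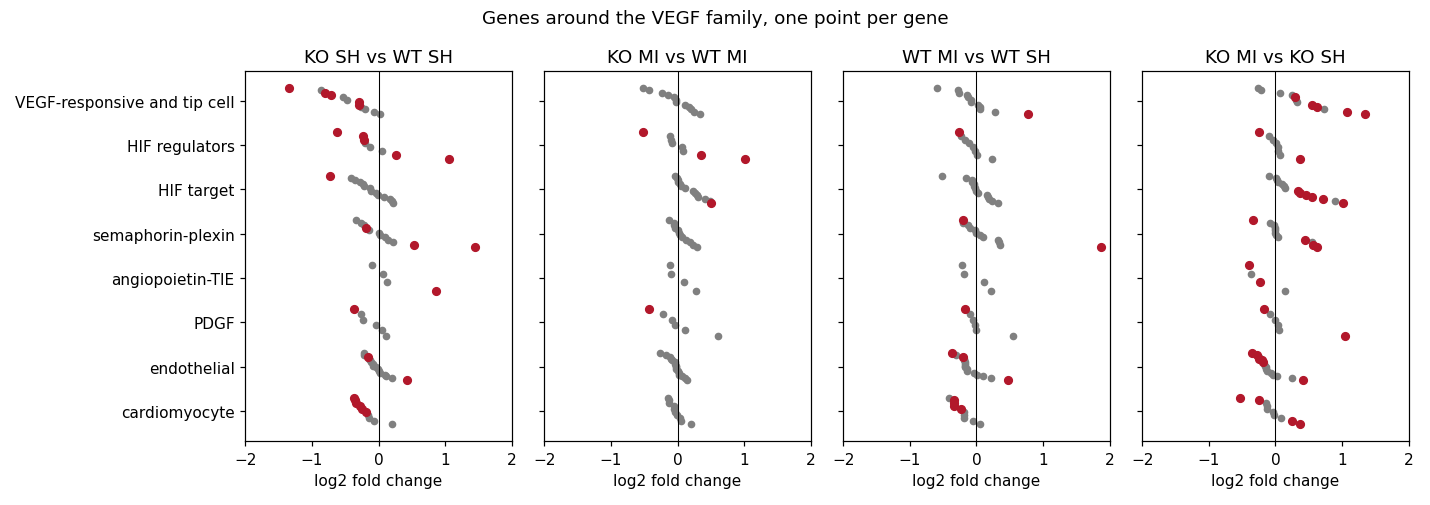
Log2 fold changes of the genes of 8 lists (rows) in the 4 comparisons, 1 point per gene, red where the adjusted p was under 0.1. The VEGF-responsive list lies to the left in KO SH against WT SH, with 5 red points, and to the right in KO MI against KO SH, also with 5.

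Calls of the listed genes differed in how far they rested on the libraries and the scaling, and none of the genes named here changed sign in these fits. With the low-*Xist* libraries alone, where 2 KO SH libraries met 4 of WT SH, some KO SH calls were lost at log2 folds within 1.5 times of the main ones. These were *Nid2* (-0.29, adjusted p = 0.152, edgeR), *Akt1* (-0.21, 0.122), *Ankrd37* (-0.62, 0.296), *Sema3e* (1.11, 0.219), *Plxnd1* (-0.15, 0.233) and *Erg* (-0.14, 0.342). In WT MI against WT SH, *Plxnd1* (-0.21, 0.173) and *Cdh5* (-0.18, 0.337) were lost in the same way. In KO MI against KO SH so were *Nid2* (0.30, 0.227), *Plcg1* (-0.25, 0.172), *Pik3ca* (-0.18, 0.441), *Hspb1* (0.45, 0.31), *Sema3d* (0.60, 0.131), *Tek* (-0.23, 0.185), *Mmrn1* (-0.90, 0.105) and *Ccl21a* (-1.18, 0.157). By contrast, *Pgk1* (0.33, 0.491), *P4ha1* (0.27, 0.544), *Prox1* (-0.17, 0.681) and *Hif1a* (0.23, 0.358) had folds over 1.5 times smaller there. *Plvap* (0.0139), *Apln* (0.0821) and *Tie1* (0.0141) kept an adjusted p under the threshold. Library totals lost *Akt1* (0.123) and *Erg* (0.172) in KO SH and *Plxnd1* (0.355) and *Cdh5* (0.438) in WT MI against WT SH. They also lost *Plcg1* (0.246), *Pik3ca* (0.672), *Tek* (0.417) and *Prox1* (0.304) in KO MI against KO SH. *Hspb1* (0.26, adjusted p = 0.262) and *Tek* (-0.18, adjusted p = 0.13) lost their calls there when KO MI 2 and 7 were left out.

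Over the 16 libraries, the genes whose log2 level followed a member most closely were found among 9583 genes at 5 CPM or more, as a description in which all points share the same groups and scaling. *Vegfa* was followed most closely by *Chd1* (Pearson r = 0.924), *Nes* (0.918) and *Dusp5* (0.916). For *Kdr* they were *Ets1* (0.965), *Chpt1* (0.958) and *Map3k20* (0.946), and for *Flt1* they were *Trip12* (0.937), *Ogn* (0.91) and *Eng* (0.901). *Pgf*, at low counts, reached at most 0.801, with *Tshz3*, and then 0.765 with *Lima1* and 0.756 with *Ubr7*. Between members, *Kdr* followed *Vegfb* (0.794) and *Nrp2* (0.714), and *Nrp1* ran opposite to *Vegfb* (-0.633) and *Vegfa* (-0.59).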

How the data were processed

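RNA of 16 mouse ventricles was analysed. The authors' deposited table gives the expected counts of RSEM, not normalized and in whole numbers. According to the methods, adapters were trimmed with Skewer and strand-specific read pairs aligned to GRCm39 with STAR before RSEM. The submitters' processing notes instead name cutadapt (3.4) and HISAT2 (2.2.1). The annotation release is not given in the sources used here, and 47772 of 51912 identifiers matched GENCODE M39, which gave names, exon lengths and positions. Antisense lncRNAs share exonic bases with *Vegfa* (64), *Vegfc* (300), *Flt4* (237), *Nrp1* (39 and 294) and *Nrp2* (383), and reads were counted by strand.

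Counts were analysed in R (4.3.3) with edgeR (4.0.16). A gene was kept where every group summed to 10 counts or more. The quasi-likelihood model, after TMM scaling, had 4 group coefficients over the 16 libraries, and F-tests (two-sided) were adjusted over all 20159 genes. A gene was called at an adjusted p under 0.1. Standard errors and 95% intervals come from this fit. CPM use TMM-scaled totals, and per-length values divide them by the exon union. The depth of 33783874 to 57470159 counts puts 3 counts at 0.0577 to 0.0858 CPM. Correlations and permutation tests used log2(CPM + 0.05). DESeq2 (1.42.0), other filters and scalings, other sets of libraries and the replicate number as a block were run as alternatives. Figures were drawn with matplotlib (3.10.9).

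All 10 members were named. From each other list, at most 3 called genes with the lowest adjusted p were named per comparison, and for *Vegfa*, *Pgf*, *Kdr* and *Flt1* the 3 genes with the closest pattern. *Pln* and *Hif1a* in KO SH were added after their values were seen. Members and lists were chosen with earlier results of these data known. Fits were tested on simulated data. The *Vegfb* and *Vegfd* upstream windows overlap exons of *Dnajc4* and *Pir* and were not printed.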

Additional observations from a re-analysis of the deposited data

Results flagged for a closer look

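In 2 of the 40 combinations of a member and a group, 1 library stood apart from the other 3 by Dixon's criterion (0.829 for 4 samples), and chance flags about 1 in 20 groups. *Flt4* was at 16.9 CPM in KO SH 4, against 18.6 to 18.8 CPM in the other KO SH libraries, a gap of 0.922 of the group's range. *Nrp2* was at 129 CPM in KO SH 2, against 120 to 121 CPM in the others, a gap of 0.863 of the range. Neither gene was called in KO SH against WT SH.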

How the results depend on the processing

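The 3 calls in KO SH against WT SH (*Vegfa*, *Vegfb* and *Nrp1*) kept direction and threshold in all 20 alternative fits, leaving out the fold threshold. *Nrp1* in KO MI against WT MI was kept in 19 of 20 and *Vegfa* in WT MI against WT SH in 18 of 20. No called value changed sign. Requiring a log2 change of 0.5 left 0, 0 and 0 members in KO SH against WT SH, KO MI against WT MI and WT MI against WT SH. Fitting only the groups compared gave 5 in KO SH against WT SH. With low-*Xist* libraries alone, 0 members were called in KO MI against WT MI and 0 in WT MI against WT SH. Without KO MI 2 and 7 together, counts were 6 in KO SH against WT SH and 2 in WT MI against WT SH. Cardiomyocyte markers called lower in KO SH went from 6 to 8 in that fit, and macrophage markers stayed at 2 lower. The numbers of all genes called in these fits are not given here, so no gain can be read as particular to the members. Library totals in place of TMM, chosen after seeing the data, gave 0 in WT MI against WT SH and 5 in KO MI against KO SH (5718 of all genes), and DESeq2 gave 1 in the interaction. Leaving out 1 library gave 0 to 1 members in the interaction and 0 to 4 in KO MI against KO SH, with 3, 1 and 1 in the other comparisons throughout. The 1 in the interaction was *Vegfa*, without WT SH 4 (adjusted p = 0.0683, edgeR) or without KO MI 7 (adjusted p = 0.0344). The cause of these changes was not tested.

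The replicate numbers showed little pairing of the samples. Of 21 same-number pairs, 1 had a correlation of deviations over 0.1 (range -0.064 to 0.113), and 4 of 16 libraries correlated best with their own number. Low correlations over all genes cannot exclude a pairing. With the replicate block, 5 members were called in KO SH against WT SH, 2 in WT MI against WT SH, 4 in KO MI against KO SH and 1 in the interaction. KO MI 7 has a number of its own, so this block removes it from the contrasts.

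Over all genes, edgeR, DESeq2 and the block called 2486, 2898 and 3433 in KO SH against WT SH, 619, 893 and 1108 in KO MI against WT MI, 3536, 3888 and 5076 in KO MI against KO SH, 1071, 1526 and 1656 in WT MI against WT SH, and 5, 571 and 1483 in the interaction. Library totals called 2377 in WT MI against WT SH. Low counts limit *Vegfd* and *Pgf*, whose intervals in KO MI against WT MI reach 0.59 and -0.49 on the log2 scale.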

Other observations

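Other cell types differed between the groups as well. In KO MI against KO SH, 7 of 8 macrophage markers and 4 of 7 fibroblast markers were called higher by edgeR, where 10.2% of all genes were higher. Summed levels were 61.8 to 134 CPM against 48.7 to 56.9 CPM for macrophages and 2760 to 3090 CPM against 1990 to 2190 CPM for fibroblasts. In KO SH against WT SH, 2 of 8 macrophage and 1 of 7 fibroblast markers were called lower, where 7.22% of all genes were. In WT MI against WT SH, 1 of 8 macrophage and 3 of 7 fibroblast markers were higher, where 5.31% of all genes were called in either direction. Between KO MI and WT MI, none of either list was called by edgeR, and the summed ranges overlapped. With the low-*Xist* libraries alone, 2 of 8 macrophage markers were called higher there. The skeletal muscle markers gave 3 calls in KO MI against WT MI, where 3.07% of all genes were called, and 0 without KO MI 2 and 7. Of 7 thymocyte markers, 5 passed the count filter and none was called by edgeR in any comparison.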
